A study of Homo sapiens with 4 samples.

Results

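Among the 9 genes of HCC1954 cells that encode the coactivators YAP and TAZ, the TEAD factors they act through and the VGLL cofactors, the YAP gene itself had by far the largest difference between cells with the hairpin against ZDHHC15 and control cells. The genes were taken by name from the deposited count table of 58735 genes. They were the coactivator genes YAP1 and WWTR1 (which encodes TAZ), the transcription factor genes TEAD1, TEAD2, TEAD3 and TEAD4, and the cofactor genes VGLL1, VGLL3 and VGLL4. HCC1954 is an established human breast cancer line, and both groups were the same line: shCON cells carried a scrambled short hairpin RNA and shZDHHC15 cells a hairpin against the palmitoyltransferase gene ZDHHC15, with 2 samples each and total RNA sequenced. The series' design text speaks of a stable knockdown, and the treatment protocol of plasmids transfected transiently with harvest after 36 h. The study's methods mention screening of monoclonal cultures, and which of these the samples were, and how many hairpins they stand for, is not given in the sources used here. Nothing in the labels says that the 2 samples of a group came from separate cultures, so p-values measure only the spread between these samples.

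YAP and TAZ are related coactivators at the end of the Hippo kinase cascade. When the kinases are inactive they enter the nucleus and bind TEAD factors, which hold the DNA contact and have little activity without a partner. VGLL proteins bind TEAD factors through a short motif at a surface that overlaps that of YAP and TAZ, so VGLL4 is known as an antagonist of YAP, while VGLL1 and VGLL3 can act as TEAD partners of their own. The study asked whether loss of ZDHHC15 lowers YAP activity. The counts bear on the RNA of these genes and not on protein, phosphorylation or localization.

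The total counts per sample lay between 17560982 and 19118704. ZDHHC15, the targeted gene, had 17617 and 15716 counts in shCON samples and 0 counts in both shZDHHC15 samples. Levels are given as CPM, the usual counts scaled to library total, here with TMM factors, or as CPM per kb of gene length where genes are compared with each other. Of 6 markers of breast epithelium, 4 were called lower and 1 higher after ZDHHC15 depletion, and their summed level was 13600 to 14600 CPM in shCON and 7950 to 7980 CPM in shZDHHC15 samples. Most of that difference lay in KRT8 (mean 6050 and 1970 CPM) and KRT18 (1640 and 547 CPM), while CDH1 was at 365 and 353 CPM and KRT19 was called higher. The summed level of 4 leukocyte markers was at most 0.657 CPM in shCON and 1.55 CPM in shZDHHC15 samples, with CD3E at 0 counts throughout and CD14 the one tested and called higher (log2 fold change 1.61). That of 4 fibroblast markers was 5.81 to 7.16 and 8.49 to 11.5 CPM, with 1 count of DCN over all samples and COL1A1 called higher (0.65). That of 3 endothelial markers was 48.3 to 49.9 and 96.6 to 101 CPM, with PECAM1 (2.91) and CDH5 (0.65) called higher. The part of these markers in the results on the 9 genes was not tested, and in bulk RNA a lower share of cells of one kind and less RNA per cell cannot be told apart.

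Of the 9 genes, 8 had enough counts to be tested. At an adjusted p under 0.05 over all 15817 tested genes (edgeR's quasi-likelihood test), YAP1, TEAD4 and VGLL1 were lower and TEAD3 was higher, and 4 genes were not called. The comparison as a whole called 20.3% of the tested genes as lower and 21.7% as higher, and the 3 lower and 1 higher of 8 are read against these shares. The median log2 fold change of the 8 genes was -0.16, beside 0.02 over all tested genes. For the size of the YAP1 difference, 45 of the 15817 tested genes had a lower log2 fold change than YAP1.

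**Figure D1:**
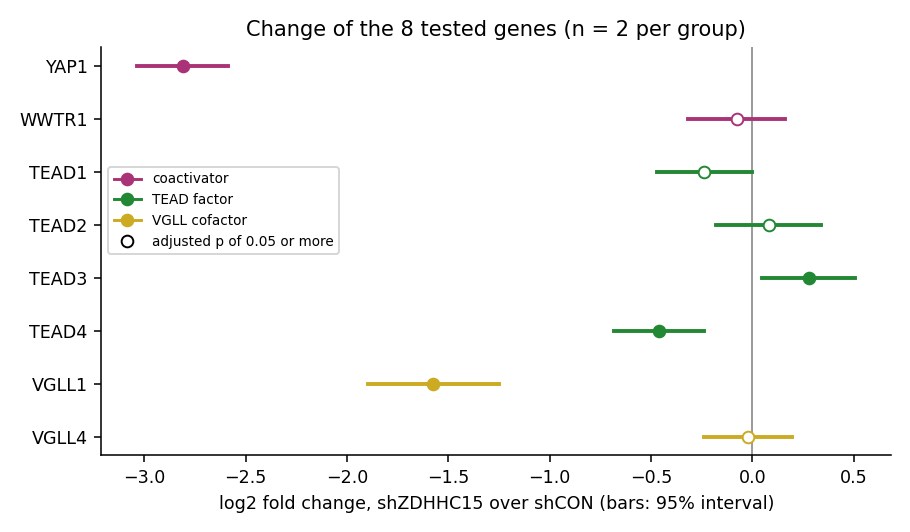
Log2 fold change (shZDHHC15 over shCON, x axis) of the 8 tested genes (y axis), coloured by role, with bars for the 95% interval of edgeR's fit, 2 samples per group and open points for genes not called. YAP1 at -2.81 and VGLL1 at -1.57 stand apart, and the intervals of WWTR1, TEAD2 and VGLL4 include 0.

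YAP1 (ENSG00000137693, GRCh38 chromosome 11, 102110461 to 102233423, plus strand) encodes the coactivator YAP. Its level was 425.3 and 415.1 CPM in the shCON samples and 54.9 and 64.7 CPM in the shZDHHC15 samples. Both control samples lay far above both depleted samples. The log2 fold change of YAP1 was -2.81 (standard error 0.105, 95% interval -3.03 to -2.59, adjusted p = 4.3e-11 by edgeR), which is 7.02-fold. Per length, its mean level in shCON cells exceeded that of 94.5% of the tested protein-coding genes, against 65.6% in shZDHHC15 cells. An antisense gene, AP000942.2, shares 628 bases of exon with YAP1 and had 0 counts in each of the 4 samples.

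WWTR1 (ENSG00000018408, chromosome 3, 149517235 to 149736714, minus strand) encodes TAZ, the paralog of YAP. Its level was 46.8 and 41.2 CPM in shCON and 42.0 and 41.5 CPM in shZDHHC15 samples. The depleted samples lay between the control samples. The log2 fold change was -0.08 with a 95% interval from -0.32 to 0.16 (adjusted p = 0.616, edgeR), so a fall of the size seen for YAP1 lay outside the interval for WWTR1. The antisense gene WWTR1-AS1 shares 795 bases of exon with WWTR1 and had between 14 and 31 counts per sample, against 696 to 854 for WWTR1.

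The ratio of YAP1 to WWTR1 within each sample therefore differed between the groups. Per length, it was 12.2 and 13.5 in shCON samples and 1.75 and 2.09 in shZDHHC15 samples, a difference of -2.74 on the log2 scale. The groups did not overlap, and an exact two-sided permutation test gave p = 0.333, the smallest p that 2 samples against 2 allow. YAP1 made up 92.4% and 93.1% of the summed YAP1 and WWTR1 level in shCON samples and 63.6% and 67.6% in shZDHHC15 samples. The level of the ratio depends on the length taken for each gene. With the longest coding transcript of each gene it was 8.93 ± 0.647 in shCON and 1.34 ± 0.167 in shZDHHC15 cells (SD, n = 2), and with the median length of all annotated transcripts 3.81 ± 0.276 and 0.570 ± 0.071, where WWTR1 lies above YAP1 in depleted cells. The log2 difference between groups is the same under each, since the length cancels.

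VGLL1 (ENSG00000102243, chromosome X, 136532152 to 136556807, plus strand), which encodes a TEAD cofactor without a DNA-binding domain of its own, had the second largest difference. Its level was 28.9 and 26.6 CPM in shCON and 8.15 and 10.4 CPM in shZDHHC15 samples. The groups did not overlap. The log2 fold change of VGLL1 was -1.57 (standard error 0.152, 95% interval -1.90 to -1.25, adjusted p = 1.39e-06 by edgeR), a 2.98-fold difference. The miRNA gene MIR934 lies in VGLL1 on the same strand, shares no exon base with it and had 0 counts in each sample.

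VGLL4 (ENSG00000144560, chromosome 3, 11556070 to 11771350, minus strand), the known antagonist of YAP at TEAD, was at 57.1 and 55.6 CPM in shCON and at 54.9 and 56.3 CPM in shZDHHC15 samples. The values of the groups were interleaved. The log2 fold change was -0.02 with a 95% interval from -0.24 to 0.20 (adjusted p = 0.898, edgeR). Scaled by library size alone, VGLL4 was at 0.05. On the opposite strand, ATG7 shares 1596 bases of exon with VGLL4 and had 326 to 421 counts per sample, against 939 to 1107 for VGLL4.

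VGLL3 (ENSG00000206538, chromosome 3, 86876388 to 86991119, minus strand) had 5 and 5 counts in shCON and 1 and 7 counts in shZDHHC15 samples and did not pass the filter on low counts. The exact Poisson intervals were 1.62 to 11.7 counts for each shCON sample and 0.0253 to 5.57 and 2.81 to 14.4 for the shZDHHC15 samples, which cover counting error only. A difference was not detectable at this depth. VGLL2, the remaining gene of the family and not among the 9, had 0, 0, 0 and 2 counts. VGLL1 and VGLL4 were thus the VGLL genes with measurable RNA in these cells. The ratio of VGLL1 to VGLL4 per length was 2.37 and 2.25 in shCON and 0.698 and 0.870 in shZDHHC15 samples, so the more abundant of the pair differed between the groups (exact permutation p = 0.333). With the median transcript length VGLL4 lay above VGLL1 in both groups (0.585 ± 0.0228 and 0.199 ± 0.0308, SD, n = 2).

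The TEAD genes encode the DNA-binding factors of the pathway, 4 paralogs with a shared TEA domain. TEAD4 (ENSG00000197905, chromosome 12, 2959330 to 3040673, plus strand) was at 67.9 and 73.4 CPM in shCON and at 49.9 and 52.7 CPM in shZDHHC15 samples, with no overlap. TEAD4 fell, and its log2 fold change was -0.46 (standard error 0.104, 95% interval -0.68 to -0.24, adjusted p = 0.0025 by edgeR), which is 1.38-fold. TEAD3 (ENSG00000007866, chromosome 6, 35473597 to 35497076, minus strand) was at 60.1 and 56.3 CPM in shCON and at 75.4 and 65.8 CPM in shZDHHC15 samples, again with no overlap. Its log2 fold change was 0.28 (standard error 0.108, 95% interval 0.05 to 0.51, adjusted p = 0.0498 by edgeR). This call lies at the threshold and was lost in 6 of 10 alternatives: the adjusted p was 0.0602 with DESeq2 size factors, 0.124 with DESeq2 and 0.166 without a filter, and the log2 fold change was 0.22 without shCON replicate 2 (adjusted p = 0.148), 0.18 without shZDHHC15 replicate 1 (0.428) and 0.37 without shZDHHC15 replicate 2 (0.0532).

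TEAD1 (ENSG00000187079, chromosome 11, 12674591 to 12944483, plus strand) was at 118.3 and 95.7 CPM in shCON and at 91.5 and 90.1 CPM in shZDHHC15 samples. Both depleted samples lay under both control samples, but the control samples differed from each other by more than the gap between the groups. The log2 fold change was -0.24 (95% interval -0.47 to -0.0031, adjusted p = 0.097 by edgeR). It was -0.39 without shCON replicate 2 (adjusted p = 0.00182, called as lower) and -0.11 without shCON replicate 1 (0.478). TEAD2 (ENSG00000074219, chromosome 19, 49340595 to 49362457, minus strand) was at 38.6 and 34.5 CPM in shCON and at 41.7 and 35.7 CPM in shZDHHC15 samples, with overlap. Its log2 fold change was 0.08 with a 95% interval from -0.18 to 0.34 (adjusted p = 0.626, edgeR), and it changed sign without shCON replicate 2 or shZDHHC15 replicate 1. CD37, on the opposite strand, shares 319 bases of exon with TEAD2 and had 55 to 90 counts per sample.

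Summed per length, the TEAD genes were at 74.1 and 71.7 CPM per kb in shCON and at 69.6 and 65.6 CPM per kb in shZDHHC15 samples, a difference of -0.11 on the log2 scale. This difference was -0.24 with the median transcript length and -0.03 with library size as the scaling. Within the sum, TEAD4 held 40.3% and 45.1% in shCON and 31.5% and 35.4% in shZDHHC15 samples, while TEAD3 held 26.6% and 25.8% and then 35.6% and 33.0%. The mean share in depleted cells less that in control cells was 8.05 percentage points for TEAD3 and -9.24 for TEAD4, each with no overlap between groups and p = 0.333 by the exact permutation test. The ratio of TEAD3 to TEAD4 was 0.661 and 0.572 in shCON and 1.13 and 0.931 in shZDHHC15 samples. Its level depends on the length taken, with means of 0.468 and 0.782 for the longest coding transcript and of 0.218 and 0.365 for the median transcript length, where TEAD4 lies above TEAD3 in both groups. TEAD2 held 17.5% and 16.1% and then 20.1% and 18.3%, and TEAD1 held 15.5% and 13.0% and then 12.8% and 13.4%, with overlap for TEAD1 (exact permutation p = 0.667).

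Set against the TEAD sum, the coactivators differed in amount. The ratio of YAP1 plus WWTR1 to the summed TEAD genes was 0.987 and 0.988 in shCON samples and 0.197 and 0.232 in shZDHHC15 samples. The summed VGLL genes stood at 0.365 and 0.352 of YAP1 plus WWTR1 in shCON samples and at 0.939 and 0.959 in shZDHHC15 samples. Neither ratio overlapped between the groups (exact permutation p = 0.333 for each). In depleted cells the RNA of the VGLL genes thus came close to that of the coactivators, with a lower VGLL1 and a still lower YAP1. With the longest coding transcript, the coactivators stood at 0.974 ± 0.00514 and 0.241 ± 0.0237 of the TEAD sum and the VGLL genes at 0.439 ± 0.00798 and 1.17 ± 0.011 of the coactivators (SD, n = 2). With the median transcript length the coactivator ratio was 1.78 ± 0.0228 and 0.653 ± 0.0338. RNA levels per length do not give the amounts of the proteins.

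**Figure D2:**
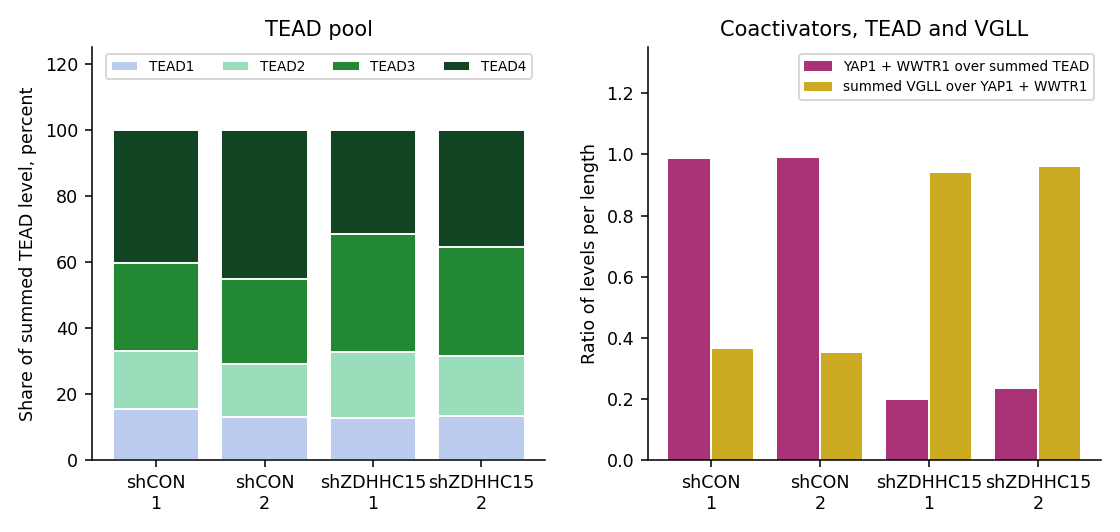
Left, share of each TEAD gene in the summed TEAD level per length in each sample, in percent. Right, ratio of YAP1 plus WWTR1 to the TEAD sum and of the summed VGLL genes to YAP1 plus WWTR1 in each sample. TEAD4 is the largest part in shCON samples, and the coactivator ratio lies near 0.99 in shCON and at 0.197 and 0.232 in shZDHHC15 samples.

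Ordered by level per length, YAP1 at 66.7 CPM per kb was first in shCON cells, followed by TEAD4 at 31.1, TEAD3 at 19.1, VGLL1 at 18.0, TEAD2 at 12.3, TEAD1 at 10.4, VGLL4 at 7.79, WWTR1 at 5.23 and VGLL3 at 0.0224. Of the 8 pairs of neighbours in this order, the samples of TEAD3 and VGLL1 overlapped, and TEAD2 and TEAD1 were separated by a narrow margin (lowest sample 11.56 against highest sample 11.51). In shZDHHC15 cells the order was TEAD3 at 23.2, TEAD4 at 22.6, TEAD2 at 13.0, YAP1 at 9.50, TEAD1 at 8.83, VGLL4 at 7.68, VGLL1 at 6.03, WWTR1 at 4.96 and VGLL3 at 0.0161. There TEAD3 overlapped TEAD4, and YAP1 overlapped TEAD1. YAP1 was first and TEAD4 second in shCON cells under all 3 choices of length. In shZDHHC15 cells YAP1 came 4 of 9 by the file's length and by the median transcript length, and 5 of 9 by the longest coding transcript. First place in shZDHHC15 cells went to VGLL4 by the median transcript length and to TEAD4 by the longest coding transcript, with TEAD3 at 6 and at 2 of 9. Between the file's length and the median transcript length, TEAD3 moved from 3 to 7 of 9 in shCON cells, WWTR1 from 8 to 4 and VGLL4 from 7 to 3, so the order below YAP1 and TEAD4 rests on the length taken.

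The start of YAP1 lies beside that of another gene. AP001527.2 (ENSG00000277459, chromosome 11, 102109827 to 102110457, minus strand), a long intergenic noncoding RNA, begins head to head with YAP1, with 3 bases between the ends of the gene models. It had 166 and 149 counts in shCON and 52 and 45 in shZDHHC15 samples. Both control samples exceeded both depleted samples, and AP001527.2 fell by 1.82 on the log2 scale (95% interval -2.29 to -1.35, adjusted p = 1.25e-05 by edgeR), a 3.53-fold difference. The strand setting of the counting is not given in the sources used here, so reads of YAP1 that begin upstream of its annotated start could not be told apart from reads of AP001527.2.

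Of 14 further genes tested within 1000 kb of the YAP1 start, 8 were called higher and 2 lower after ZDHHC15 depletion, the lower ones being AP001527.2 and DCUN1D5 (log2 fold change -0.39), beside 21.7% higher and 20.3% lower over all tested genes. The nearest protein-coding gene, CFAP300, lies 25.9 kb before YAP1 and had 1 count over all samples, and CEP126 on that side rose by 1.07. On the other side the nearest are BIRC3 and BIRC2, which encode inhibitors of apoptosis, and their log2 fold changes were 0.34 (adjusted p = 0.0373) and 0.37 (adjusted p = 0.00489, edgeR). TMEM123 rose by 0.46. Of the matrix metalloproteinase genes beyond them, MMP7 rose by 2.00, MMP1 by 2.45 and MMP13 by 5.48, the last from 103 and 109 counts to 5879 and 4437, while MMP10 (log2 fold change 0.99, adjusted p = 0.0961 by edgeR) and MMP3 (0.46, adjusted p = 0.384) were not called. This window was chosen after earlier results on these genes were known.

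Because YAP1 and VGLL1 fell most, the 250 bases upstream of their starts are shown, from RefSeq on GRCh38.p14. The capitals mark the letters GGAATG, a motif bound by TEAD factors, on either strand (CATTCC is its reverse complement).

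YAP1: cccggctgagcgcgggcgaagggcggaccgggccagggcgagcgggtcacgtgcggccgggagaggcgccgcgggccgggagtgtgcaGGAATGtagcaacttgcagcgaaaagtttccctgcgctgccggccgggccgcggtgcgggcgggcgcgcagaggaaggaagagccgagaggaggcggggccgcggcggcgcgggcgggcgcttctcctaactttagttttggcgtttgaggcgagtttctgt

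VGLL1: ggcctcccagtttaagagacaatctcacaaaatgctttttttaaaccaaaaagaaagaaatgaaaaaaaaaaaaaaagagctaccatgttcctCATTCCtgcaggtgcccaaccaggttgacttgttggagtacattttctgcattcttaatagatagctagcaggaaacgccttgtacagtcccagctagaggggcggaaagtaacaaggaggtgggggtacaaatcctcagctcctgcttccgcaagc

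The YAP1 sequence covers chr11:102110197-102110446 on the plus strand and the VGLL1 sequence chrX:136531965-136532214 on the plus strand. In YAP1 the motif begins 162 bases before the start and in VGLL1 157 bases before it. The YAP1 window lies within AP001527.2, and 5 of 11 annotated YAP1 transcripts start within 50 bases of the RefSeq start, while 0 of 4 VGLL1 transcripts do. RefSeq promoters, here 250 bases before to 50 bases after a start, were matched for 7 of the 9 genes (13 entries), with TEAD1 and TEAD4 without an entry. GGAATG was found in 2 of these 13 entries, those of YAP1 and VGLL1, and in 14.0% of all 35116 promoter entries. The AP-1 motif TGANTCA, searched on both strands, was found in 0 of the 13 entries and in 7.71% of all entries. A match describes the letters and does not show that a factor binds there.

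The genes with the pattern most like that of YAP1 were sought among 12957 tested protein-coding genes, by the Euclidean distance between log2 CPM values of the 4 samples after centring each gene on its mean. They were COL15A1 (distance 0.127), FGF1 (0.213), RASL10B (0.224), IL1RL1 (0.326) and INSL4 (0.327). Of these, FGF1 had 64 and 68 counts in shCON and 8 and 11 in shZDHHC15 samples. RASL10B had 14 and 11 and then 0 and 0 counts. The log2 fold change of RASL10B was -6.72 in edgeR's fit, far beyond that of YAP1. The log2 CPM values carry a prior count of 2, which shrinks differences at such low counts. COL15A1, which encodes a basement membrane collagen, had 374 and 359 counts in shCON and 45 and 62 in shZDHHC15 samples, a log2 fold change of -2.90. IL1RL1, the receptor gene of interleukin 33, had 449 and 328 and then 47 and 75 counts, a log2 fold change of -2.79. For TEAD3 the nearest were FANCD2, NEK4, TDRD3, CCNG2 and PHF14, at distances from 0.0277 to 0.041, and these 5 genes had adjusted p-values from 0.0639 to 0.292 by edgeR. With 4 samples in 2 groups, this distance weighs mainly the difference between the group means.

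The rest of the pathway was read from 4 lists written from general knowledge, and their counts stand beside the 21.7% higher and 20.3% lower over all tested genes. Of 22 genes of Hippo kinases and their adaptors, 9 were lower and 6 higher in shZDHHC15 cells, with a median log2 fold change of -0.09. The largest falls called were those of FRMD6 (log2 fold change -1.25), AMOTL2 (-0.98) and LATS2 (-0.75), the last a kinase that phosphorylates YAP. The largest rises were AMOT by 1.69, which encodes a YAP-binding junction protein, TAOK3 by 0.72 and TAOK1 by 0.59. Most genes of this list are known to restrain YAP and TAZ, but AJUBA (-0.74, lower) and LIMD1 (0.37, higher) encode proteins known to inhibit LATS kinases. The number of higher genes was smaller without shZDHHC15 replicate 1, where fewer of all tested genes were called higher as well. Of 13 genes for retention and degradation of YAP, 7 were lower and 2 higher, with a median of -0.29. Among them SFN, which encodes the 14-3-3 protein sigma, fell (-0.76), as did TJP1 (-0.65) and YWHAQ (-0.45), and YWHAG rose by 0.26. The number higher was smaller without shCON replicate 2 and without either shZDHHC15 replicate, as was that over all tested genes.

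Nuclear partners of YAP, TAZ and TEAD went in both directions. Of 19 tested genes of this list, 10 were higher and 5 lower, with a median log2 fold change of 0.24. The number higher was smaller without shZDHHC15 replicate 1, as was that over all tested genes. The AP-1 genes FOSL1, JUN and JUND, whose products bind DNA beside TEAD factors, fell, with log2 fold changes of -1.20, -0.77 and -0.66, as did JUNB (-0.33), while FOSL2 was called higher (0.24) and FOS was not called (0.13). The coactivator genes NCOA2 and NCOA1 rose by 1.07 and 0.91, and TP73, a p53 relative that YAP can bind, rose by 2.90 from 11 and 11 counts to 92 and 89. Of 22 target genes of YAP and TEAD, 15 were lower and 2 higher, with a median of -0.72. The largest falls were those of CYR61 (-2.79), CTGF (-2.36) and ANKRD1 (-2.08), and DOCK5 rose by 0.50 and IGFBP3 by 0.46. The value for ANKRD1 rests on low counts, 39 and 28 in shCON and 9 and 8 in shZDHHC15 samples (standard error 0.431). AMOTL2, LATS2 and PTPN14 stand in both the first and the last of the 4 lists, and the lists share the samples with the 9 genes, so their counts are no separate evidence.

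**Figure D3:**
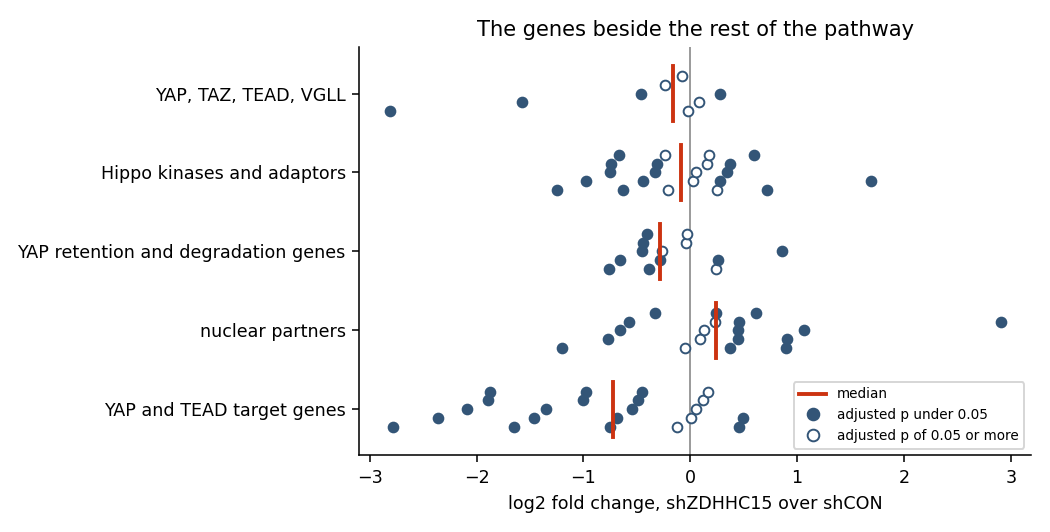
Log2 fold change (x axis) of the tested genes of the YAP, TAZ, TEAD and VGLL group and of 4 lists of other pathway genes (rows), with red bars for medians and open points for genes not called. The medians run from -0.16 for the group to -0.09, -0.29, 0.24 and -0.72 for the lists.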

How the data were processed

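The authors deposited 1 table of raw read counts per gene, not normalized, in 4 samples, with each gene's position and length. The submitters' processing notes name HISAT2, StringTie, SAMtools and hg38, without roles or versions, and libraries were made with the NEBNext Ultra kit. The counting tool and strand setting are not given in the sources used here. All 58735 genes had the positions of GENCODE release 29, and the deposited lengths equal the union of annotated exons. All count columns were used.

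Groups and numbers were taken from the sample titles. Counts were filtered with filterByExpr, scaled by TMM and tested with edgeR 4.0.16 (R 4.3.3) by glmQLFit and glmQLFTest, with Benjamini-Hochberg adjustment over 15817 genes and a call at an adjusted p under 0.05. Standard errors were derived from the F statistic of each gene and its fold change. Ratios and shares were compared by exact permutation tests (scipy 1.17.1). DESeq2 1.42.0 was an alternative. The test was checked on counts drawn with known log2 changes of 1.5, up or down, for 200 of 15817 genes. It recovered 99.5% of them, and 6.57% of its calls were false. With no change drawn, 2 genes were called. This setting has far fewer changed genes than the data and does not cover changes as small as that of TEAD3.

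The 9 genes, the lists and the motifs were chosen with earlier results of these data known. The genes named are the 9, VGLL2, ZDHHC15, their overlapping and neighbouring genes, the 3 largest called falls and rises of each list, and the 5 genes nearest in pattern to YAP1 and to TEAD3. Some genes that this rule names are not reported here. The genes within 1000 kb of YAP1, AP001527.2, AJUBA, LIMD1, JUNB, FOSL2, FOS and the cell type markers named singly were added after their values were seen. Same-numbered samples had deviations from their group means that correlated across 6019 genes (r = 0.254), but nothing in the labels says that a number marks a shared batch.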

Additional observations from a re-analysis of the deposited data

How the results depend on the processing

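The calls of YAP1, TEAD4 and VGLL1 as lower held in all 10 alternatives, with log2 fold changes from -2.94 to -2.70, -0.55 to -0.39 and -1.77 to -1.41. WWTR1 stayed uncalled, from -0.18 to -0.0032. The count of genes called higher (TEAD3) was 0 with DESeq2 size factors, with the DESeq2 Wald test and without a filter on low counts, and between 0 and 1 with each sample left out. Without a filter, 3 Hippo kinase and adaptor genes, 1 retention and degradation gene and 1 target gene were called higher. Over all genes, 2282 of 30168 were called higher without a filter, beside 3427 of 15817 with it. With each sample left out, the genes called higher numbered from 3 to 6 for the Hippo list, from 1 to 3 for the retention list and from 6 to 10 for nuclear partners. In those fits the lone sample of a group is assumed to vary like the other group. TEAD2 was -0.0095 without shCON replicate 2 and -0.035 without shZDHHC15 replicate 1, in a range up to 0.1833, and VGLL4 was 0.0548 with library size only.

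With the median transcript length, the log2 difference of the ratio of VGLL genes to coactivators was 1.26, and the shares of TEAD1 and TEAD3 differed by 0.0197 and 5.03 percentage points. With each sample left out, the difference in the TEAD1 share ran from -2.4555 to 0.0887. The longest coding transcript as length was added after seeing the data.

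With the replicate number as a replicate block, TEAD1 was called as lower (log2 fold change -0.23, adjusted p = 0.0476), and no other call among the 8 genes changed. The number of all genes called was 3723 higher and 3502 lower, beside 3427 and 3217 without the block. Library size as the only scaling gave 3926 higher and 2545 lower. Depth limits VGLL3, whose counts are near the floor of 3.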

Other observations

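The nearest protein-coding genes on each side of the TEAD, WWTR1 and VGLL genes were read as well. TSPAN9, which encodes a tetraspanin beside TEAD4, was higher in shZDHHC15 cells by 0.76 on the log2 scale (adjusted p = 8.5e-05, edgeR) while TEAD4 was lower, and TULP3 on the other side of TEAD4 had a log2 fold change of 0.34 (adjusted p = 0.0371). RPL10A, a ribosomal protein gene 2.81 kb from TEAD3, fell by 0.43. TEAD3 was higher by 0.28, a call at the threshold that was lost in 6 of 10 alternatives. TULP1, 0.798 kb away on the other side of TEAD3, had a log2 fold change of 0.87 (adjusted p = 0.121, edgeR). Its counts were 14 and 10 in shCON and 20 and 28 in shZDHHC15 samples. COMMD2, 1.76 kb from WWTR1, fell by 0.46 (adjusted p = 0.00969), and HTATSF1 beside VGLL1 had a log2 fold change of 0.16 (adjusted p = 0.215). SLC6A16 beside TEAD2 was higher by 1.19 (adjusted p = 0.0303), from 22 and 8 counts to 39 and 36. Not called were PARVA beside TEAD1 (log2 fold change -0.21), CHMP2B beside VGLL3 (0.15), and HRH1 (0.02) and TAMM41 (-0.17) beside VGLL4.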
